A study of Mus musculus with 15 samples.

Results

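The liver takes up glucose after a meal, stores it as glycogen, and releases it again between meals from glycogen and by gluconeogenesis. Phosphoenolpyruvate carboxykinase, fructose-1,6-bisphosphatase and glucose-6-phosphatase drive the steps of gluconeogenesis that glycolysis cannot run backwards, and pyruvate kinase drives the last step of glycolysis in the opposite direction. Glucagon and fasting are known to raise the first of these enzymes at the level of transcription, and insulin, acting through IRS2, to lower it. Expression of 9 genes of this kind was followed here: *Pck1*, *Fbp1* and *G6pc* of gluconeogenesis, *Pklr* of glycolysis, the glucose transporter gene *Slc2a2*, *Gys2* and *Pygl* of glycogen synthesis and breakdown, and the regulators *Ppargc1a* and *Irs2*. They were taken by symbol from a table of 55573 genes, each symbol matched 1 row, and all 9 passed the filter on low counts, which left 17655 genes to test.

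Livers came from 8-week-old mice of the strain B6N(Cg)-Esr1tm4.2Ksk/J, with 1 RNA-seq library per mouse: 3 wild-type females (FWT), 3 wild-type males (MWT), 5 ESR1KO females (FKO) and 4 ESR1KO males (MKO). ESR1KO mice lack estrogen receptor alpha in all tissues through a deletion of exon 3 of *Esr1*, are infertile and have raised testosterone in both sexes, so effects of the receptor in the liver and effects of altered hormones cannot be told apart. The sources used here do not state feeding or the time of day at collection for these mice. Total counts ranged from 27799061 to 78624766 per mouse. *Esr1* was at 81.9 ± 6.79 CPM (counts scaled to library size by TMM; SD, n = 3) in FWT, 36.1 ± 14.1 (SD, n = 3) in MWT, 13.1 ± 4.01 (SD, n = 5) in FKO and 11.8 ± 3.35 (SD, n = 4) in MKO, lower in every ESR1KO mouse than in every WT mouse of its sex. The 7 hepatocyte markers summed to 117090 to 125218 CPM in FWT, 96266 to 97929 in MWT, 100322 to 125938 in FKO and 105544 to 114794 in MKO. Most of this was *Alb*, which was higher in FWT than in MWT (log2 fold change 0.66, adjusted p = 0.0382). Of the 7 markers only 1 had an estimate above 0 in that contrast, and the median was -0.33. By edgeR at an unadjusted p under 0.05, 1 was higher in FWT and 4 were lower, beside 17.3% of all genes in either direction. P-values below set group differences or correlations against the variation between these mice.

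The genes are spread over 8 chromosomes of GRCm38, with positions from GENCODE M21. *Pck1* (ENSMUSG00000027513) lies at chr2:173153048-173159273, *Fbp1* (ENSMUSG00000069805) at chr13:62864753-62888282 and *G6pc* (ENSMUSG00000078650) at chr11:101367561-101377903. *Pklr* (ENSMUSG00000041237) at chr3:89136142-89146784 and *Slc2a2* (ENSMUSG00000027690) at chr3:28697903-28731359 share a chromosome. *Gys2* (ENSMUSG00000030244) lies at chr6:142422613-142473109, *Pygl* (ENSMUSG00000021069) at chr12:70190811-70231488, *Ppargc1a* (ENSMUSG00000029167) at chr5:51454250-51567726 and *Irs2* (ENSMUSG00000038894) at chr8:10984681-11008458. *Pklr*, *Slc2a2*, *Pygl*, *Ppargc1a* and *Irs2* each overlap an annotated gene on the opposite strand (for *Pklr*, the channel gene *Hcn3*), and *Ppargc1a* also overlaps transcripts of unclear status on its own strand. The strand setting of the counting is not given in the sources used here, so reads of such neighbours cannot be told apart from those of these 5 genes.

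Hormones act on several of these genes through their promoters, so the bases before the start site are shown for the gene that differed between genotypes (*Pck1*), for the one that varied most between mice (*G6pc*) and for the regulator with the largest fitted difference (*Irs2*). They are the 250 bases before the RefSeq start site on GRCm38.p6, given 5′ to 3′ on the strand of the gene, at chr2:173152823-173153072 (+) for *Pck1*, chr11:101367466-101367715 (+) for *G6pc* and chr8:11008930-11009179 (−) for *Irs2*. Capitals mark the motifs found among those searched.
Pck1: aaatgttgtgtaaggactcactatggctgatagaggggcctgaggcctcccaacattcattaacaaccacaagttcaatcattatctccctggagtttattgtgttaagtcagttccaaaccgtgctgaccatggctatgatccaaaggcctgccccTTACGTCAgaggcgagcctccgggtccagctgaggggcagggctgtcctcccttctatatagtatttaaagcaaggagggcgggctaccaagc
G6pc: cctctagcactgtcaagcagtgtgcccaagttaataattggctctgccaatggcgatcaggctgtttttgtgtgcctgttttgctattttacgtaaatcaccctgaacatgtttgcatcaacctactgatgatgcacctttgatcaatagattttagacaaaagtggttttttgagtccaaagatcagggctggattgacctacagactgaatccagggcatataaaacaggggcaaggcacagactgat
Irs2: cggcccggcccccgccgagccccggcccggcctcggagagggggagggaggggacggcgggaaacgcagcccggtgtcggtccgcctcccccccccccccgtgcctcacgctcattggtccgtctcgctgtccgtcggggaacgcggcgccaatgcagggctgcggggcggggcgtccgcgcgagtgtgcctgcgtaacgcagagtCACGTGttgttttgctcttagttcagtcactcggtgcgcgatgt
Promoters of 8 of the 9 genes were searched on both strands from 250 bases before to 50 after the start site, with no entry used for *Gys2*. The *Pck1* promoter held the cAMP response element variant TTACGTCA, first base at position -93, which 0.499% of 32851 mouse promoters of this length hold. The *Irs2* promoter held the E-box CACGTG at position -44, present in 7.15%. The full cAMP response element TGACGTCA (1.79%), the FOXO site GTAAACA (3.65%), the C/EBP site TTGCNNAA (10.8%), the STAT site TTCNNNGAA (8.3%) and the palindromic estrogen response element GGTCANNNTGACC (0.07%) were found in none of the promoters searched, which says only that these letters are not in these windows.

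Levels differed widely between the genes when compared per length, as CPM per kb of exon averaged over 15 mice. *Pck1* was highest at 725 CPM per kb, rank 68 of the genes tested, followed by *Fbp1* at 639 (rank 78), and their ranges over mice overlapped (323 to 1181 and 436 to 807). *G6pc* at 178, *Pklr* at 120, *Gys2* at 119, *Slc2a2* at 104 and *Pygl* at 93.3 CPM per kb came next. Their ranges over mice overlapped one another and lay below that of *Fbp1*. *Irs2*, an adaptor of the insulin receptor, stood at 3.88 CPM per kb (rank 6284), and *Ppargc1a*, a transcriptional coactivator that fasting raises, at 1.59 (rank 9555), with overlapping ranges. The liver forms were far above the isoenzymes used by other tissues. *Pck2*, the mitochondrial form of the enzyme, was at 0.415 CPM per kb, *G6pc3* at 1.61, *Fbp2* of muscle at 0.0823, *Pkm* at 4.23, *Slc2a1* at 1.85, *Gys1* at 0.648 and *Pygb* at 2.24. For the regulators the order was the other way, with *Irs1* at 5.71 above *Irs2*, and *Ppargc1b* at 3.09 above *Ppargc1a*.

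**Figure D1:**
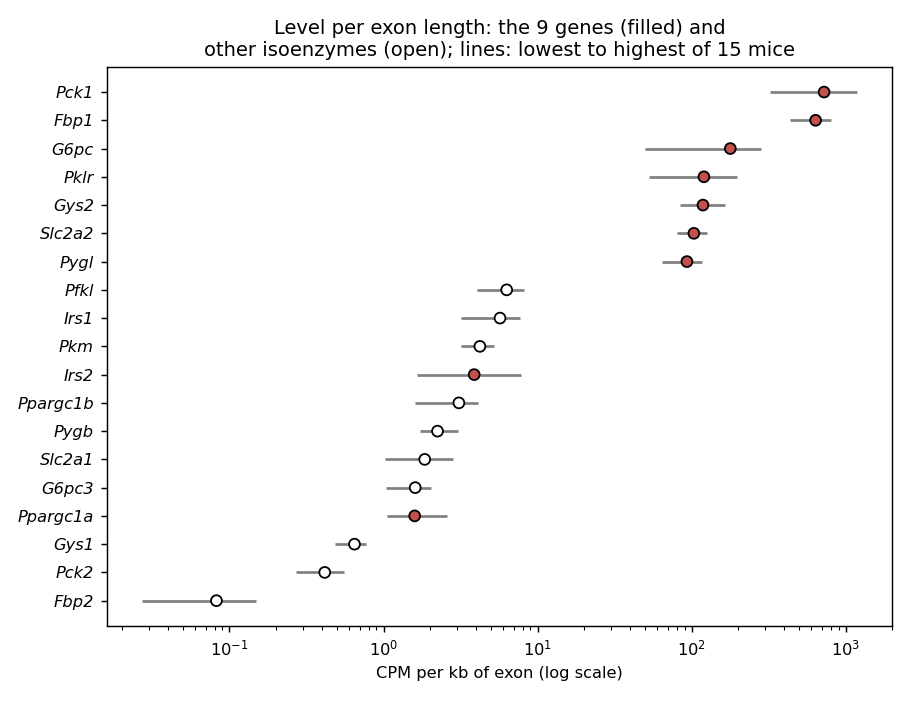
Mean level of each gene in CPM per kb of exon (log axis) over 15 mice, with a line from the lowest to the highest mouse. Filled points are the 9 genes and open points other isoenzymes and relatives, and *Pck1* at 725 and *Fbp1* at 639 lie farthest to the right.

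Differences between 2 groups, their interaction and the average over sexes were tested by the quasi-likelihood F test of edgeR. The p-values were adjusted over 17655 genes by the Benjamini-Hochberg method, and genes below 0.05 after adjustment were called. In WT mice, 0 of the 9 genes differed between females and males, where 4.87% of all genes tested were called. In ESR1KO mice 0 were called (0.272% of all genes). In females, 0 differed between ESR1KO and WT (5.71%), and in males 0 (1.42%). The interaction, which tests whether the genotype difference depends on sex, called 0 (1.94%). Averaged over both sexes, the genotype difference called 1, *Pck1* (4.13%). DESeq2 called 0 of the 9 in each of the first 5 contrasts and 2 in the average, *Pck1* and *Pklr*. At an unadjusted p under 0.05, edgeR had 2 of the 9 in the WT sex contrast (17.3% of all genes), 1 between ESR1KO sexes (17.5%) and 3 in the female genotype contrast (22.5%). It had 3 in the male genotype contrast (11.9%), 1 in the interaction (14.3%) and 4 in the average (19.4%). No fitted difference reached 1.5 on the log2 scale, the minimum that the study sets.

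**Figure D2:**
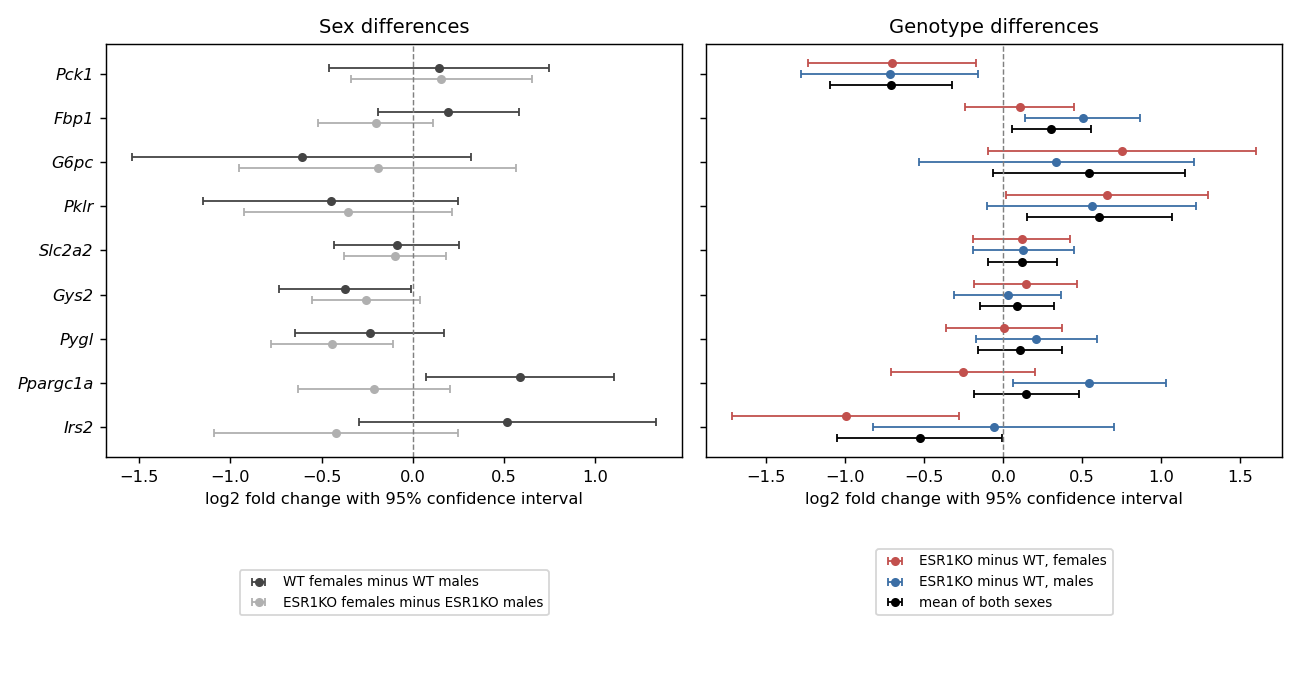
Fitted log2 fold changes with 95% confidence intervals for the 9 genes, sex contrasts on the left and genotype contrasts on the right. *Pck1* lies near -0.71 in females, in males and in their average, while intervals of *G6pc*, *Pklr* and *Irs2* are the widest.

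*Pck1*, which encodes the cytosolic enzyme that commits oxaloacetate to glucose synthesis, was lower in ESR1KO livers. It was at 2899, 4050 and 3241 CPM in the 3 FWT mice, at 2405, 3391 and 3430 in the MWT mice, at 2007, 1993, 1767, 2407 and 2234 in the FKO mice, and at 1108, 1722, 1474 and 3160 in the MKO mice. Every FKO mouse lay below every FWT mouse, and 3 of 4 MKO mice lay below every MWT mouse, the fourth lying within the range of the MWT mice. The mean was 3397 ± 591 CPM (SD, n = 3) in FWT, 3075 ± 581 (SD, n = 3) in MWT, 2082 ± 246 (SD, n = 5) in FKO and 1866 ± 899 (SD, n = 4) in MKO. Averaged over the sexes the log2 fold change was -0.71 (SE 0.182, 95% confidence interval -1.10 to -0.33, adjusted p = 0.0367). In females it was -0.71 (95% interval -1.24 to -0.18, adjusted p = 0.107) and in males -0.72 (-1.28 to -0.16, adjusted p = 0.245), and neither was called alone. The difference between the sexes in this change was 0.01 (95% interval -0.77 to 0.79). In bulk liver, fewer cells that express a gene and less of its RNA per cell cannot be told apart.

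That call depended on single mice. With 1 mouse left out in turn, it held in 6 of 15 fits, with log2 fold changes between -0.90 and -0.63 and adjusted p between 0.00152 and 0.106. It was lost without FWT2 (adjusted p = 0.09997), FWT3 (0.0757), MWT2 (0.0829), MWT3 (0.106), FKO2 (0.0617), FKO3 (0.0522), MKO1 (0.0552), MKO2 (0.0658) and MKO3 (0.0771). Without MKO4, the mouse at 3160 CPM, *Pck1* was called in the average (adjusted p = 0.00152), in females (-0.71, 0.0318) and in males (-1.10, 0.0139).

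Since *Pck1* is higher in periportal hepatocytes and responds to fasting and to the clock, lists of such genes are given beside it. The other 9 periportal markers, summed, were at 7326 to 10728 CPM in FWT, 7913 to 10564 in MWT, 7975 to 10199 in FKO and 10241 to 12147 in MKO. Of these 9, 1 was called in the averaged genotype difference, *Hsd17b13*, a lipid droplet enzyme, at 0.29, and this and the following counts stand beside 4.13% called among all genes. Of 10 pericentral markers 2 fell in that average, *Cyp1a2* (-0.80), a xenobiotic oxidase, and *Slc1a2* (-0.38), a glutamate transporter, and in females 3 fell, *Cyp1a2* (-0.89), *Lgr5* (-0.80) and *Lect2* (-0.67), beside 5.71% of all genes. All 10 pericentral markers summed to 8160 to 10293 CPM in FWT, 4485 to 8939 in FKO, 7691 to 8730 in MWT and 6787 to 8118 in MKO, and overlapped between genotypes in both sexes.

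Of 16 genes of fasting and feeding 2 rose in the average, *Cyp4a14* (3.58), a fatty acid hydroxylase, and *Scd1* (1.47), a fatty acid desaturase. In males 4 rose, *Cyp4a14* (7.57), *Pnpla3* (4.11), *Scd1* (1.89) and *Pdk4* (1.51), and *Asns* fell (-1.29), beside 1.42% of all genes. In females only *Asns* was called, and it rose (1.76), beside 5.71%. The interaction called *Cyp4a14* (-7.98) and *Asns* (3.05), beside 1.94%, so the average does not describe both sexes for *Cyp4a14*. Its mean was 0.622 CPM in MWT and 117 in MKO, but 222 in FWT and 166 in FKO. All 16 summed to 9064 to 10835 CPM in MWT and 20085 to 33328 in MKO, which did not overlap, and to 8265 to 14435 in FWT and 8743 to 23572 in FKO, which did. *Scd1* alone made up 4649 CPM of the mean in MWT and 17185 in MKO. None of 17 clock genes was called in the average by edgeR (5 at an unadjusted p under 0.05, beside 19.4% of all genes), and *Per3* was lower in FKO than in FWT (-0.59).

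Among markers of other cells, 1 of 6 for bile ducts was called in the average, *Krt19* (0.80, from means of 0.542 to 1.26 CPM). All 6 estimates were above 0, and by edgeR 4 had an unadjusted p under 0.05, beside 19.4% of all genes. In males *Krt19* (1.23) and *Epcam* (0.95) were called, beside 1.42%, and in females *Spp1* (0.60), beside 5.71%. The interaction called *Epcam* (-1.17), beside 1.94%, so the average does not describe both sexes for *Epcam*. Of 5 red cell genes 1 was called in the average, *Alas2*, at 21.7 CPM in FWT, 128 in FKO, 170 in MWT and 162 in MKO, and the 4 globin genes were not. Of 8 genes of pancreas, fat or muscle only *Cela1* passed the filter on low counts, and it fell (-0.75), while the pancreas gene *Prss2* was at 0 in every library and *Cpa1* at no more than 0.0361 CPM. Of 26 endothelial, macrophage, stellate and lymphocyte markers 0 were called in the average by edgeR (2 at an unadjusted p under 0.05). The part of cell zones, other cells, feeding or time of day in the *Pck1* result was not tested.

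*Fbp1*, which encodes the phosphatase that removes a phosphate from fructose-1,6-bisphosphate, was not lower in ESR1KO mice. Its mean per kb of exon was below that of *Pck1* in WT (600 against 991 CPM in FWT, 524 against 897 in MWT). In ESR1KO it was above (646 against 607 in FKO, 744 against 544 in MKO). Values were 903, 1136 and 1028 CPM in FWT, 977, 926 and 774 in MWT, 743, 1025, 1226, 1373 and 1130 in FKO, and 1195, 1324, 1210 and 1335 in MKO. All MKO mice lay above all MWT mice (log2 fold change 0.50, 95% interval 0.14 to 0.87, adjusted p = 0.199, or 0.0386 and called when only these 2 groups were fitted), and FKO overlapped FWT (0.11, -0.24 to 0.45). The averaged difference was 0.30 (0.05 to 0.56) with an adjusted p of 0.165. Without FKO1, the lowest FKO mouse, it was called by edgeR (0.36, adjusted p = 0.0285), the only 1 of 15 fits with 1 mouse left out that called it.

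*G6pc*, for the enzyme that releases free glucose in the last step of gluconeogenesis and of glycogen breakdown, varied most of the 9 genes between mice. It was at 184, 514 and 120 CPM in FWT, at 314, 601 and 332 in MWT, at 572, 649, 294, 487 and 295 in FKO, and at 583, 400, 434 and 682 in MKO. The highest mouse exceeded the lowest 5.67-fold, and FWT alone spanned 120 to 514 CPM, with a coefficient of variation of 77.5%. The groups overlapped in all 4 contrasts of 2 groups. ESR1KO minus WT was 0.75 on the log2 scale in females (95% interval -0.10 to 1.60, adjusted p = 0.282) and 0.34 in males (-0.54 to 1.21, adjusted p = 0.825), intervals wide enough to hold a 3.04-fold and a 2.31-fold rise. Without FWT2, the high FWT mouse, the female difference was 1.59 by edgeR (adjusted p = 0.0286) and the average was 0.96 (adjusted p = 0.0406), both called. Without FWT3, the lowest FWT mouse, the female difference was 0.40 (adjusted p = 0.654) and the average 0.37 (adjusted p = 0.561). Each was called in only 1 of 15 fits with 1 mouse left out.

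*Pklr* encodes the pyruvate kinase of liver, which closes glycolysis and whose transcription follows carbohydrate intake. It was at 173, 403 and 185 CPM in FWT, at 291, 461 and 287 in MWT, at 266, 356, 610, 462 and 301 in FKO, and at 639, 427, 450 and 528 in MKO. ESR1KO means were above WT means in both sexes, with overlapping mice. The log2 fold change was 0.65 in females (95% interval 0.02 to 1.29, adjusted p = 0.211), 0.56 in males (-0.10 to 1.22, adjusted p = 0.532) and 0.61 on average (0.15 to 1.07, adjusted p = 0.129). DESeq2's Wald test called the average (0.60, adjusted p = 0.0486), as did edgeR with no filter on low counts (0.61, adjusted p = 0.0381) and without FWT2 (0.86, adjusted p = 0.0284). Of 15 fits with 1 mouse left out, only 1, that without FWT2, called it.

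Enzymes that run in opposite directions were set against each other as log2 ratios of their CPM in each mouse. The *Pck1* to *Pklr* log2 ratio was 4.07, 3.33 and 4.13 in FWT and 2.92, 2.49, 1.53, 2.38 and 2.89 in FKO. It was 3.04, 2.88 and 3.58 in MWT and 0.79, 2.01, 1.71 and 2.58 in MKO. All ESR1KO mice lay below all WT mice of their sex, with differences of means of -1.40 in females and -1.39 in males. A 2-sided exact permutation test gave p = 0.0357 in females and p = 0.05714 in males, each the smallest its design allows, and both 0.286 after adjustment over 16 such tests, 4 of them of a ratio not reported here. The *Fbp1* to *Pfkl* ratio, against the liver phosphofructokinase, was higher in all MKO than in all MWT mice (0.27, exact p = 0.05714, adjusted 0.286), and in females the mice overlapped (0.30, exact p = 0.0714). The *Gys2* to *Pygl* ratio overlapped between groups in all 4 contrasts. Of 16 ratio tests 0 passed the exact permutation test after adjustment, but with these group sizes none could have passed. Even with every test at the smallest p its design allows, adjustment over 16 tests leaves each above 0.05. The count of 0 therefore says nothing about the ratios. Unadjusted, 1 test had a p under 0.05, which the group sizes of the WT sex and male genotype contrasts cannot reach.

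**Figure D3:**
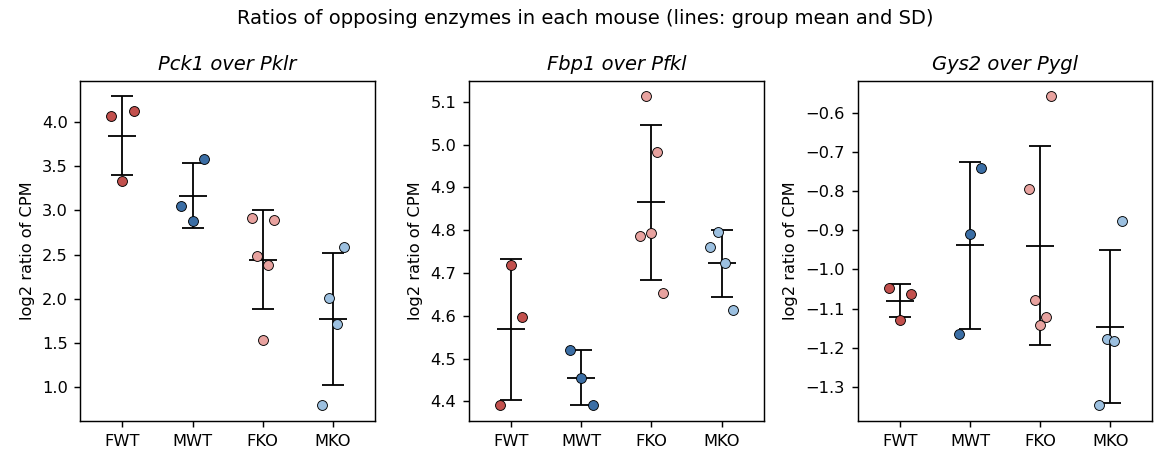
Log2 ratios of CPM of opposing enzymes, with 1 point for each mouse and lines for group mean and SD. In the *Pck1* over *Pklr* panel the FKO mice lie between 1.53 and 2.92, below the FWT mice at 3.33 to 4.13.

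*Slc2a2* encodes GLUT2, the carrier through which glucose enters and leaves hepatocytes, and it was the steadiest of the 9. Its highest mouse exceeded its lowest 1.55-fold. Values were 479, 624 and 546 CPM in FWT, 575, 632 and 547 in MWT, 465, 607, 699, 672 and 537 in FKO, and 677, 544, 608 and 723 in MKO, and the groups overlapped in each contrast. The averaged genotype difference was 0.12 (95% interval -0.10 to 0.34, adjusted p = 0.575) and the WT sex difference -0.09 (-0.43 to 0.25), so changes beyond 1.27-fold upward on average lay outside the interval.

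Glycogen synthase of liver, *Gys2*, was lower in each FWT mouse than in each MWT mouse, without passing the test. It was at 225, 318 and 260 CPM in FWT, at 343, 375 and 319 in MWT, at 255, 242, 329, 303 and 347 in FKO, and at 314, 313, 344 and 439 in MKO. The WT groups came within 1 CPM of each other, at 318 and 319. The WT sex difference was -0.37 (95% interval -0.73 to -0.01, adjusted p = 0.276) and that in ESR1KO -0.26 (-0.55 to 0.04, adjusted p = 0.351), with overlap. The averaged genotype difference was 0.08 (-0.15 to 0.32).

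*Pygl*, the phosphorylase that breaks glycogen down in liver, was at 464, 695 and 543 CPM in FWT, 769, 705 and 533 in MWT, 442, 512, 727, 658 and 510 in FKO, and 799, 708, 780 and 807 in MKO. FKO minus MKO was -0.44 on the log2 scale (95% interval -0.78 to -0.11, adjusted p = 0.187), with 1 FKO mouse above the lowest MKO mouse. ESR1KO minus WT was 0.01 in females (-0.36 to 0.37) and 0.21 in males (-0.17 to 0.59). The *Gys2* to *Pygl* log2 ratio lay between -1.35 and -0.56 over the 15 mice, and its group differences were within 0.21.

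*Ppargc1a*, which encodes the coactivator PGC-1alpha that turns on gluconeogenic genes with fasting, had few counts relative to the enzymes, 269 to 1284 per library. It was at 11.3, 12.3 and 12.7 CPM in FWT, at 7.63, 9.53 and 6.94 in MWT, at 11.1, 14.6, 8.16, 8.18 and 8.57 in FKO, and at 9.72, 8.77, 11.02 and 17.1 in MKO. Every FWT mouse was above every MWT mouse (log2 fold change 0.59, 95% interval 0.07 to 1.10, adjusted p = 0.210), and in ESR1KO the sexes overlapped (-0.21, -0.63 to 0.21). Genotype differences were -0.26 in females (-0.71 to 0.20) and 0.55 in males (0.06 to 1.03, adjusted p = 0.342). The interaction was -0.80 (-1.46 to -0.14, adjusted p = 0.264), so opposite signs in the sexes were not called as a difference. Fitted to the WT mice alone by edgeR, the sex difference was called (0.59, adjusted p = 0.0289). With 1 mouse left out of the fit to all groups, it was called in 0 of 15 fits.

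*Irs2* carries the insulin signal that restrains hepatic glucose output, and insulin in turn lowers its transcription. It was at 49.4, 33.2 and 25.05 CPM in FWT, at 16.7, 29.97 and 28.4 in MWT, at 13.99, 15.3, 15.8, 19.9 and 24.6 in FKO, and at 15.8, 10.5, 28.5 and 40.7 in MKO. The FKO mice lay below the FWT mice, the closest at 24.64 and 25.05, and the MKO mice spanned the MWT mice. The female difference was -0.999 (95% interval -1.72 to -0.28, adjusted p = 0.0934), the male difference -0.06 (-0.82 to 0.70, adjusted p = 0.976) and the interaction -0.94 (-1.995 to 0.12, adjusted p = 0.400). Whether the change depends on sex was therefore not resolved. The female difference was called by edgeR when FKO and FWT were fitted alone (adjusted p = 0.0475) and with no filter on low counts (-0.97, adjusted p = 0.0236). DESeq2's Wald test did not call it (adjusted p = 0.0970). With 1 mouse left out, edgeR called it in 0 of 15 fits. Without FWT1, the mouse at 49.4 CPM, it was -0.70 (adjusted p = 0.344).

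**Figure D4:**
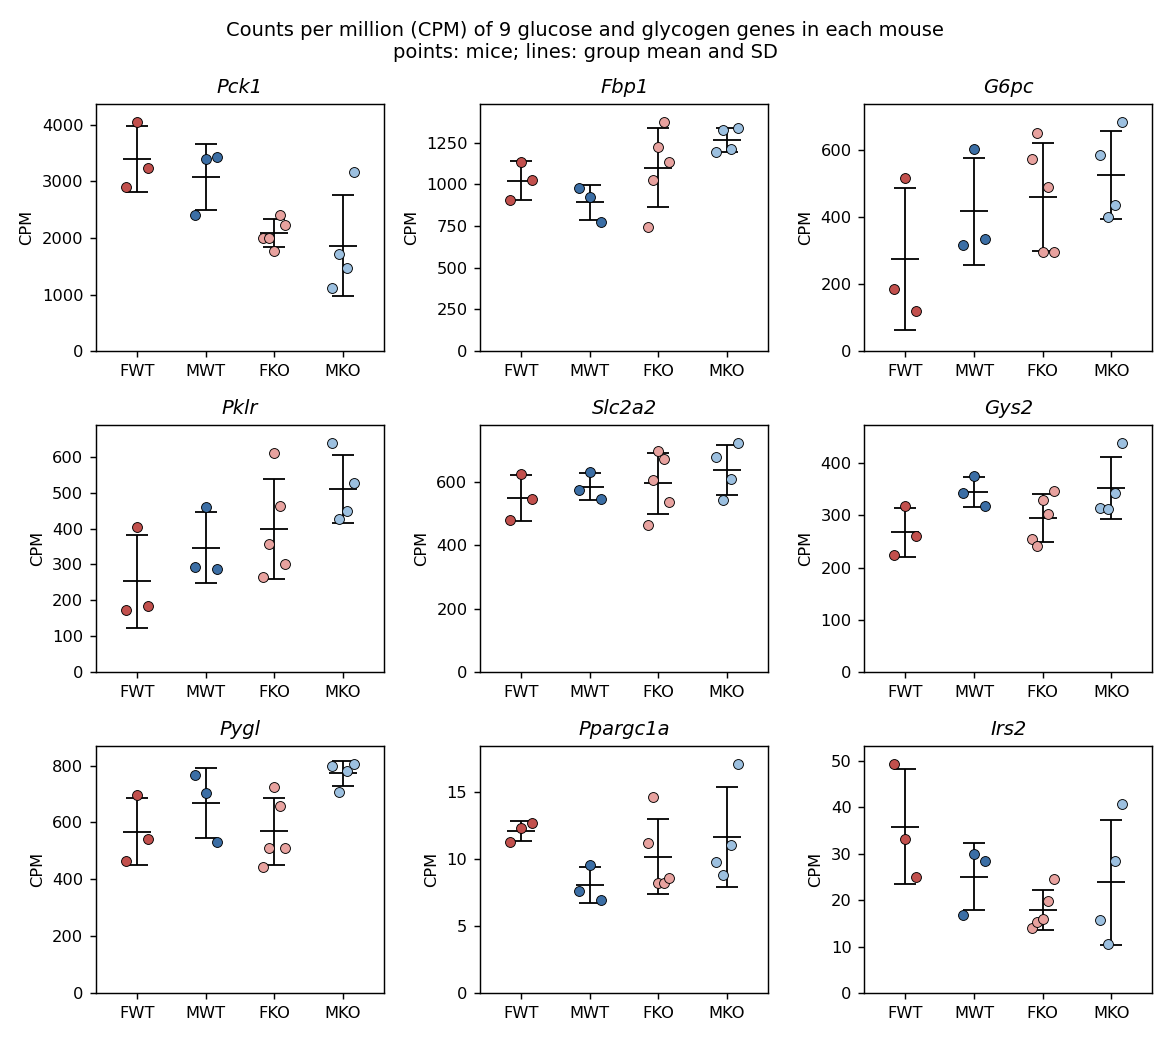
CPM of the 9 genes by group, with 1 point for each mouse, the group mean and an SD bar, on axes that start at 0. For *Pck1* the 5 FKO mice (1767 to 2407) lie under the 3 FWT mice (2899 to 4050), and the wide spread of *G6pc* in FWT is visible.

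Other genes of the same pathways were taken as 4 lists, with the 9 genes left out, which gave 124 tested genes. In the averaged genotype difference 5 of the 124 were called (4.03%), beside 4.13% of all genes. Of these 4 rose, among them *Galk1* (0.60) of galactose use, the pyruvate dehydrogenase kinase gene *Pdk1* (0.44), and *Gbe1* (0.43), which branches glycogen. *Akt1*, a kinase that transmits the insulin signal, fell by 0.33. In females 2 were called, *Stbd1* (0.58), which binds glycogen, and *Akt1* (-0.47), beside 5.71% of all genes. In males 3 were called, *Pdk4* (1.51), *Galk1* (0.74) and *Pdk1* (0.73), beside 1.42%. In the WT sex contrast 2 were called, *Ldhd* (-0.65), a lactate dehydrogenase, and *Stbd1* (-0.57), beside 4.87%. By edgeR 0 of the 124 were called between the sexes of ESR1KO mice (34 at an unadjusted p under 0.05, where all genes had 17.5%), and the interaction also had 0 (11, where all genes had 14.3%). Over the lists with members included, the median averaged difference was 0.06 in gluconeogenesis, 0.12 in glycolysis and hexose entry, 0.06 in glycogen metabolism and -0.12 in insulin and glucagon signalling, beside 0.00 over all genes tested.

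Across single mice, several of these genes rose and fell together once group means were taken away. For each of 36 pairs, Pearson's r of deviations of log2 CPM was computed over 15 mice, and an exact permutation within groups gave the p. Of the 36, 4 passed adjustment, all with r above 0: *Pklr* with *Slc2a2* (r = 0.86, exact p = 0.000299, adjusted 0.0108, rho = 0.89, adjusted 0.00208), *Slc2a2* with *Pygl* (0.84, 0.000704, adjusted 0.0127, rho = 0.85, adjusted 0.00972), *Fbp1* with *Pygl* (0.81, 0.00311, adjusted 0.0355, rho = 0.84, adjusted 0.0307) and *Pklr* with *Pygl* (0.82, 0.00394, adjusted 0.0355, rho = 0.83, adjusted 0.0133). Leaving out the 2 mice farthest from the median of the first gene of each pair gave r of 0.83, 0.75, 0.82 and 0.69. With any 1 mouse left out, between 2 and 5 pairs passed: 2 without FWT1, FWT2, MWT3, FKO1, FKO2 or FKO4, and 5 without MKO1. All points of a mouse share 1 library and its scaling.

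Several mice stood high or low in their group for many of the genes at once. FWT2 was the highest FWT mouse for 7 of the 9 genes, MWT2 the highest MWT mouse for 6 and MKO4 the highest MKO mouse for 8, while FWT1 was lowest in its group for 7, MWT3 for 6, FKO1 for 5 and MKO2 for 7. Such counts were not made over all genes tested, so they cannot be called particular to these 9. Since several of the 9 are correlated across mice, the counts are not independent either. MKO4 also had the highest total count of the 15 libraries. *Pck1* did not belong to the correlated group: r was 0.10 with *Pklr*, 0.02 with *Pygl*, 0.24 with *Slc2a2* and 0.21 with *Fbp1*, the adjusted p being 0.480 or higher. *Pck1* and *G6pc*, which fasting raises together, had r = 0.35 (exact permutation, adjusted p = 0.345). *G6pc* and *Ppargc1a* had r = 0.51 (exact permutation, adjusted p = 0.0905).

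**Figure D5:**
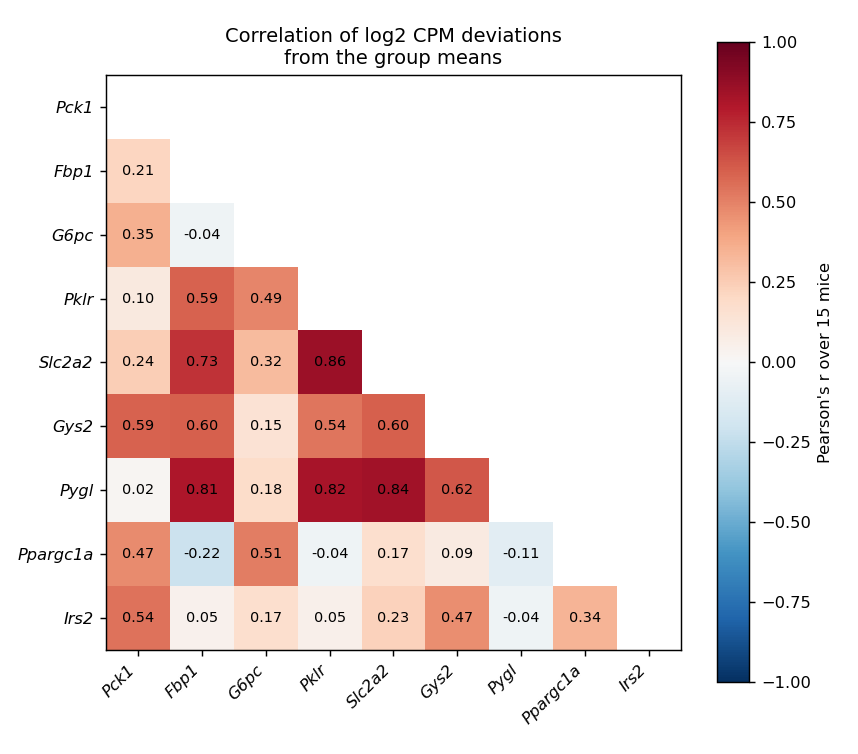
Pearson's r over 15 mice between deviations of log2 CPM from group means, for the 36 pairs of the 9 genes. The darkest cells join *Pklr*, *Slc2a2*, *Pygl* and *Fbp1*, and the *Pck1* column is paler, with 0.59 for *Gys2* as its highest.

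For each gene, the 2 others whose log2 CPM followed it most closely over the 15 mice, by Pearson's r among 11639 genes averaging 1 or more on that scale, are named as a description. Group differences enter these r values, unlike those above. For *Pck1* these were *Rnf169* (0.87) and *Zbtb16* (0.86), for *Fbp1* *Apoa5* (0.93) and *Naxe* (0.92), for *G6pc* *Gm36172* (0.86) and *Pdhb* (0.84), and for *Pklr* *Ctf1* (0.90) and *Gm15408* (0.90). For *Slc2a2*, *Sec31b* (0.85) is named, for *Gys2* *Itpr1* (0.90) and *Fbxo34* (0.90), and for *Pygl* *Eno1* (0.89), a glycolytic enzyme, and *Gcat* (0.87). *Ppargc1a* was nearest to *Flt3l* (0.87) and *Isca2* (0.85), and *Irs2* to *Pnrc1* (0.89) and *Sorbs3* (0.88). None of the 9 genes had another of the 9 among its nearest pair.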

How the data were processed

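RNA of 15 mouse livers was depleted of ribosomal RNA and sequenced as paired-end reads in 1 lane, and some libraries were sequenced again. Per the labels and the study's methods, the authors used Trimmomatic for trimming, STAR for alignment to GRCm38 and HTSeq for read counts of genes. The deposited values are raw read counts, without normalization. The submitters' processing notes give Trimmomatic 0.36 and HTSeq 0.6.0, which is not the HTSeq version the study's methods give. The annotation release and strand setting are not given in the sources used here. Each column of the table was mapped to 1 mouse, grouped by the sex and genotype of its label.

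Counts were filtered with filterByExpr, scaled by TMM and fitted in edgeR 4.0.16 (R 4.3.3) with a mean for each group over all 15 mice. Quasi-likelihood F tests gave the p-values, adjusted over 17655 genes by the Benjamini-Hochberg method. The averaged genotype difference is the mean of the female and male ESR1KO minus WT contrasts. DESeq2 1.42.0 was an alternative. CPM used TMM factors, log2 CPM a prior count of 2, and ratios a pseudocount of 0.5 counts. The fit was tested on simulated data. Positions and exon lengths came from GENCODE M21, which held 55480 of 55573 gene identifiers, and promoters from RefSeq on GRCm38.p6. There the *G6pc*, *Irs2* and *Pygl* start sites lie 155, 471 and 3805 bases from the GENCODE gene starts. *Pklr* had 2 promoters, 1 of them 481 bases away. Same-numbered mice of different groups were checked for pairing: 1 of 19 pairs had a correlation of deviations over 0.1, so numbers were not taken to pair mice. The 9 genes, the lists and the tests were chosen with earlier results of these data known. Named are the 9 genes, their isoenzymes, genes of the lists that were called, and the 2 genes most like each of the 9. A few genes and 1 ratio covered by this rule are not reported here. Alternatives were other size factors, no or another filter, only the groups compared, a replicate block, other thresholds and each mouse left out in turn.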

Additional observations from a re-analysis of the deposited data

How the results depend on the processing

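Of 360 fitted differences of the 9 genes under alternatives that kept every mouse, 344 kept direction and side of the threshold, 9 passed the threshold that had not, and 7 turned sign. Of 810 with 1 mouse left out, 760 kept both, 9 lost the threshold, 6 gained it and 35 turned sign. The number of genes called in the WT sex contrast was 1 with only the groups compared and 2 at an unadjusted p. In the ESR1KO sex contrast it was 1 at an unadjusted p, and in the interaction 1. In the female genotype contrast it was 1 with no filter, 1 with only the groups compared, 2 with the replicate block (*Pck1*, -0.90, adjusted p = 0.0174, and *Irs2*, -1.38, 0.0276), 3 at an unadjusted p, and 0 to 1 with 1 mouse left out. In the male contrast it was 1 with only the groups compared (*Fbp1*), 1 with the replicate block (*Pck1*, -0.998, adjusted p = 0.0347), 3 at an unadjusted p, and 0 to 1 with 1 mouse left out. In the average it was 2 by DESeq2, 2 with no filter, 0 with a minimum fold change of 1 or 1.5 on the log2 scale, 4 at an unadjusted p, and 0 to 2 with 1 mouse left out. Pairs related across mice numbered 2 to 5 with 1 mouse left out. The replicate block left the counts at 0 in both sex contrasts and the interaction and at 1 in the average. Some estimates turned sign, none of them called. With every mouse kept, *Pygl* in females was -0.0089 when scaled by total counts and -0.0050 under the filter of 1 CPM. *Gys2* in males was -0.00067 with no filter and -0.058 with the replicate block, and on average -0.026 with the block. The *Slc2a2* interaction was 0.056 with no filter and 0.021 with the block. With 1 mouse left out, ranges were -0.0060 to 0.25 for *Pck1* and -0.19 to 0.0013 for *Slc2a2* in the WT sex contrast, and -0.037 to 0.54 for *Pck1* and -0.38 to 0.038 for *Ppargc1a* in the ESR1KO sex contrast. They were -0.12 to 0.18 for *Pygl* in females, -0.095 to 0.092 for *Gys2* and -0.45 to 0.19 for *Irs2* in males. Interactions ranged from -0.17 to 0.39 for *Pck1*, -0.16 to 0.60 for *Pklr* and -0.10 to 0.091 for *Slc2a2*. The cause was not tested. Each gene had counts in every library, and 3 to 5 mice per group bound the precision of each difference.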
